A study of Mus musculus with 17 samples.

Results

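The genes described here mark microglia and the macrophages at the borders of the brain. The set holds 34 mouse genes, taken from a list of known markers by symbol, of 45147 features counted in all. Of them, 30 were listed for microglia and 4 (Mrc1, Cd163, Lyve1 and Pf4) for border macrophages. The rule used no measured value, but the members were chosen with earlier results of these data known.

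Brain RNA of mice on a C57BL/6 background was sequenced in 17 libraries. The transgene group (6 libraries) came from mice that overexpress HAR1A, a long noncoding RNA gene of a human accelerated region, and the control group (11 libraries) from normal mice. The labels give no brain part, age or sex, no promoter or founder line for the transgene, and do not say whether each library was a separate animal. The p-values therefore rest on library-to-library spread alone, which may be technical. HAR1A itself was not analysed here. All 6 transgene libraries were run on lane 4 of one flow cell, together with control 7, control 8 and control 11. Of the other controls, 6 were run on lane 8 and control 4 on lane 2 of that flow cell, and control 6 on lane 6 of another. The comparison of transgene with control was made over all libraries and again within lane 4, and the lane 8 controls were set against the lane 4 controls. The lane 4 comparison reuses libraries of the comparison over all libraries, so neither is independent support for the other.

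Microglia are the resident macrophages of the brain parenchyma. They settle there in the embryo, depend on signalling through the receptor Csf1r, and sense neurons and injury through purinergic and chemokine receptors such as P2ry12 and Cx3cr1. They are the main source of the complement component C1q in the brain. Border macrophages line the meninges, perivascular spaces and choroid plexus, and are told apart from microglia by scavenger and mannose receptors such as Cd163, Lyve1 and Mrc1.

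The transcription factor PU.1, encoded by Spi1, drives the macrophage programme and recognises purine-rich sites with a GGAA core. Of the 34 members, 25 had a promoter in RefSeq (GRCm38.p6). The 8-letter motif GAGGAAGT, searched on both strands within 250 bases before the start, was present in 3 of them (C1qc, Inpp5d and Pf4), against 2.79% of 27025 genes. Its first 7 letters, GAGGAAG, a shorter motif that overlaps the first by construction, were present in 11, of which 9 were microglia members, against 12% of genes. The ETS-IRF composite element, bound by PU.1 together with Irf8, was found on either strand in 0 of the 25, against 2.68% of genes. The Mef2 element was searched in a loose form, with any base allowed in its centre. This loose form was found in 1, Cx3cr1, against 3.70% of genes, and a match to it need not be a Mef2 site. These are matches of letters and not measured binding. The following stretches are shown, each 5′ to 3′ on the strand of its gene. They hold the 7-letter motif in some of those 11 members, whose levels are described below. Capitals mark GAGGAAG or its reverse complement CTTCCTC. The RefSeq starts are not always those of the gene models used for counting, whose coordinates are given below. The Laptm5 and Fcrls stretches lie wholly inside those models, and the C1qc and Mrc1 stretches partly.
P2ry13, minus strand, chr3:59210883-59211002: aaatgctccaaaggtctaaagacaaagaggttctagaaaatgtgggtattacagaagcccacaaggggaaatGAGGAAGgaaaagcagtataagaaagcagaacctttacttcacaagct
Fcrls, minus strand, chr3:87263559-87263678: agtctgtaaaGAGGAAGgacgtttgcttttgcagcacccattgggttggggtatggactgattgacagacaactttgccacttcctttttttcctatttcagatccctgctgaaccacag
Laptm5, plus strand, chr4:130913196-130913315: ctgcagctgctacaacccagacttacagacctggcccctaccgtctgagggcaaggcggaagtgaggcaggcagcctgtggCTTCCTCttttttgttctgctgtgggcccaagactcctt
Trem2, plus strand, chr17:48346281-48346400: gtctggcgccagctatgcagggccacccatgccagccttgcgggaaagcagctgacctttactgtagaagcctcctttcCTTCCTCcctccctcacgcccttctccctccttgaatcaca
C1qc, minus strand, chr4:136892999-136893118: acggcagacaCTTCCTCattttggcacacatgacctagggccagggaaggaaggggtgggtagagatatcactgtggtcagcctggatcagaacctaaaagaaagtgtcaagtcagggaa
Mrc1, plus strand, chr2:14229294-14229413: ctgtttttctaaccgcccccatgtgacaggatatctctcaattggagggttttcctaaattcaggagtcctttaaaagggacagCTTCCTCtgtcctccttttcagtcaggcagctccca
Pf4, plus strand, chr5:90772315-90772434: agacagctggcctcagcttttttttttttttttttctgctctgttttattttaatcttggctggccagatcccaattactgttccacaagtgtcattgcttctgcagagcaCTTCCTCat
The first 4 of these genes were called higher in the transgene libraries over all libraries, as was C1qc, while Mrc1 and Pf4 were not called. The other members with the 7-letter motif are not shown. Of them, Fcgr3 and Slco2b1 were not called over all libraries, and Itgam and Inpp5d were not tested there.

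The members differed in how many overlapping transcripts they had in the deposited tables. The authors deposited counts for each transcript, and reads that matched several features went to a closing row that named none, which held 40.2% to 43.4% of all reads of a library. Levels are given as CPM, a gene's TMM-scaled share of the counts given to features. The 16 members with 1 deposited transcript had control means between 2.05 and 91.4 CPM (median 13.5). The 18 members with several had a median of 10.8% of their exonic bases in a single transcript and control means between 0.0130 and 19.8 CPM (median 0.746), and 10 of them lay under 1 CPM. Csf1r, the receptor on which microglia depend, had 326 of its 4885 exonic bases in 1 transcript only and a control mean of 0.174 CPM. Cx3cr1, the fractalkine receptor, had 674 of 4505 such bases and 0.197 CPM. Per kilobase of such bases, the control level was 0.533 CPM for Csf1r and 0.292 CPM for Cx3cr1, under all 16 members with 1 transcript (0.710 to 87.9 CPM per kilobase). The part of the shared bases in these low counts was not tested. Csf1r, Cx3cr1, Aif1 (a calcium-binding protein used to stain microglia), Itgam (an integrin), Inpp5d (a lipid phosphatase) and Cd163 did not pass the filter on low counts over all libraries and were not tested there, which left 28 members.

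**Figure D1:**
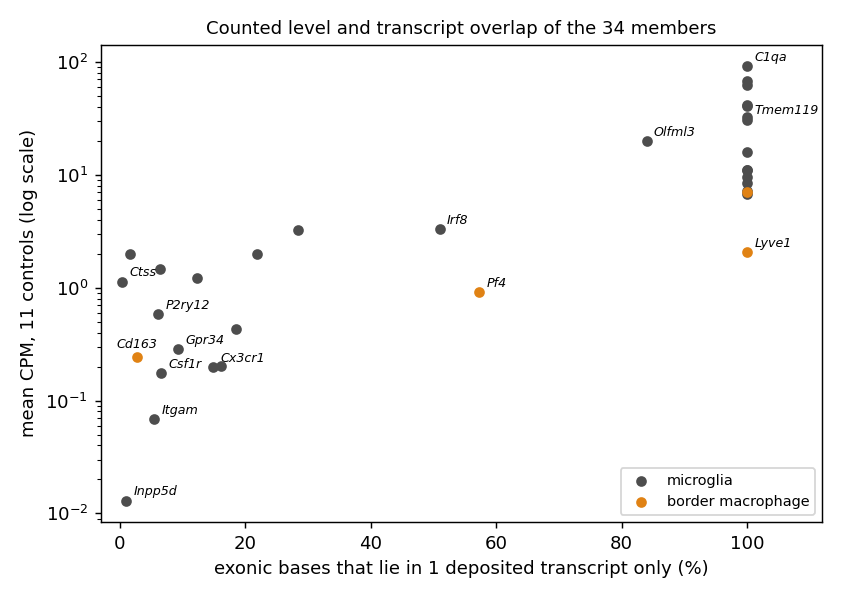
Mean level in the 11 controls (CPM, log scale) against the percent of exonic bases that lie in 1 deposited transcript only, for the 34 members (grey microglia, orange border macrophage). The 16 members at 100% lie between 2.05 and 91.4 CPM, while Csf1r, Cx3cr1, Itgam and Inpp5d lie under 0.2 CPM.

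Per kilobase of transcript, among the 16 members with 1 transcript, the control level was highest for the C1q chains: C1qa at 87.9, C1qb at 57.3 and C1qc at 56.7 CPM per kilobase. Tyrobp followed at 28.2, Selplg at 17.7, Laptm5 at 15.99 and Tmem119 at 13.7 CPM per kilobase. The lowest 2 were the border macrophage members Mrc1 (1.30) and Lyve1 (0.710 CPM per kilobase). Markers that set microglia apart from other macrophages, such as Tmem119, Sall1 and P2ry13, were thus counted in every library, and the border macrophage markers at lower levels.

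Assigned counts ranged from 17067407 to 22642441 per library. The libraries also differed by group in markers of brain parts and other cells. The summed level of 7 striatal genes was 999.6 to 2741 CPM in the transgene and 252.8 to 509.3 CPM in the control libraries, and all 7 were called higher. That of 7 hindbrain and spinal cord genes was 0.439 to 3.51 CPM against 28.4 to 335 CPM, and all 7 were called lower, also within lane 4. The 7 cerebellar genes summed to 252.1 to 1024 CPM against 225.1 to 5060 CPM, with all 7 called lower over all libraries and 2 within lane 4. The lane 4 controls alone ranged from 225.1 to 4549 CPM. The cerebellar gene Cbln3 had 354 counts in control 7, 24391 in control 8 and 7485 in control 11. It had 3930 counts in transgene 3, against 22 to 84 in the other transgene libraries. The 7 red cell genes summed to 395.1 to 1147 CPM against 472.7 to 5222 CPM, with 3 called lower, and of 8 tested endothelial genes 4 were called lower. The 12 monocyte and neutrophil genes varied between libraries of both groups (2.61 to 359.4 CPM in the transgene and 1.66 to 392.8 CPM in the control libraries), and none of the 7 tested passed in edgeR, with a median log2 fold change of 1.02 and 0 at an unadjusted p under 0.05. The part of these differences in the members' values was not tested. In bulk tissue, fewer cells of a type and less RNA per cell cannot be told apart.

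Over all libraries, 16 of the 25 tested microglia members were higher in the transgene libraries and none was lower. A gene was called where the Benjamini-Hochberg adjusted p of edgeR's quasi-likelihood test was under 0.05. By that rule 47.4% of 19136 tested features were called, and 23.0% were called higher. All 25 microglia members had a log2 fold change above 0, with a median of 0.62, against a median of -0.05 over all tested features. None of the 3 tested border macrophage members was called by edgeR, DESeq2 or limma-voom, 0 had an unadjusted edgeR p under 0.05, and their median was 0.11. No member separated the groups without overlap, which 9.46% of features did upward and 5.40% downward.

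Within lane 4, where both groups shared the lane and flow cell, the count fell to 2 of 26 tested microglia members, both higher. Here 25.6% of 19261 features were called and 13.6% were called higher. The 18 microglia members above 0 and 8 below it had a median of 0.14, against -0.04 over all features. Unadjusted edgeR p-values were under 0.05 for 7 of the 26 microglia members, and for 7254 of the 19261 features. The 3 border macrophage members had a median of 0.18, with no call by the same tools and 0 at an unadjusted p under 0.05.

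**Figure D2:**
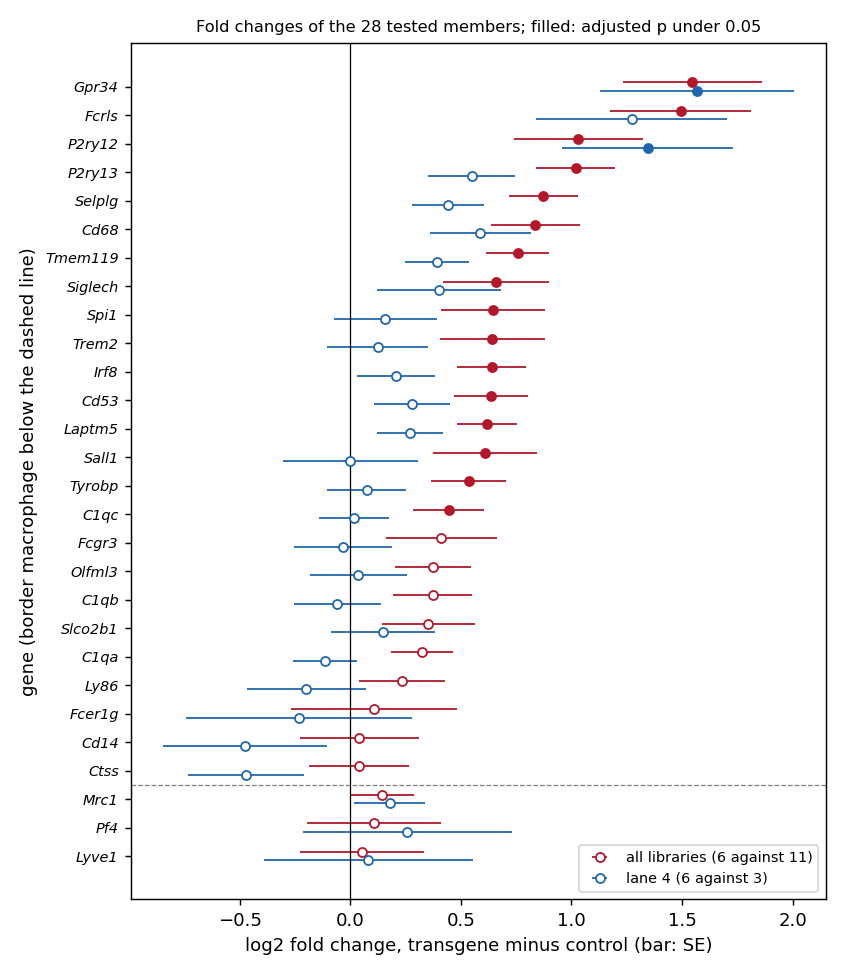
Log2 fold change of each of the 28 members tested over all libraries, transgene minus control, with its standard error (bars), over all libraries (red) and within lane 4 (blue). Filled points passed an adjusted p of 0.05: 16 over all libraries, and P2ry12 and Gpr34 within lane 4.

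The purinergic and lysophospholipid receptors were among the members with the larger differences. P2ry13, an ADP receptor next to P2ry12 on chromosome 3 (mm10, chr3:59207892-59210882), was counted at 14.4 (lowest), 19.5 (median) and 25.5 (highest) CPM in the transgene libraries and at 5.39, 9.76 and 14.96 CPM in the controls. The lowest transgene library lay just under the highest 2 controls, both of lane 4, and above every control of lane 8. P2ry13 was 2.03-fold higher over all libraries (log2 fold change 1.02 ± 0.18 SE, edgeR adjusted p = 0.000129). Within lane 4, against controls at 14.5, 9.83 and 14.96 CPM, its log2 fold change was 0.55 ± 0.20 (edgeR adjusted p = 0.0631, and 0.0374 without transgene 3).

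P2ry12, the ADP receptor that guides microglial processes to injury (chr3:59216272-59262871), was counted at 0.845, 1.18 and 1.76 CPM (lowest, median and highest) in the transgene libraries and at 0.105, 0.657 and 0.904 CPM in the controls. These levels rest on 142 and 130 counts in all and on 151 of its 2442 exonic bases. Control 2, of lane 8, was the one control above the lowest transgene library. The log2 fold change was 1.03 ± 0.29 over all libraries (edgeR adjusted p = 0.00679) and 1.35 ± 0.39 within lane 4 (edgeR adjusted p = 0.0265), where the groups did not overlap, as for 14.7% of features upward and 10.6% downward. Med12l lies over P2ry12 on the opposite strand, and with no stated strand setting the reads of the pair cannot be told apart.

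Gpr34, a lysophosphatidylserine receptor on chromosome X (chrX:13632089-13640858), was counted at 0.556, 0.835 and 1.12 CPM in the transgene and 0.0876, 0.257 and 0.645 CPM in the control libraries, on 100 and 64 counts in all. Only 194 of its 2090 exonic bases lay in 1 transcript. Control 9, of lane 8, was the one control inside the transgene range. The Gpr34 log2 fold change was 1.55 ± 0.31 (edgeR adjusted p = 0.000521), and 1.57 ± 0.44 within lane 4 (edgeR adjusted p = 0.0234), again without overlap there. Both lane 4 calls lost significance without control 7 (adjusted p = 0.0891 for P2ry12 and 0.0860 for Gpr34). Without control 8, P2ry12 did (0.0669), and without control 11, Gpr34 did (0.0911). Cx3cr1, with 43 counts in the transgene and 44 in the control libraries, was tested within lane 4 only (log2 fold change -0.01 ± 0.54).

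Among surface genes that mark microglia, Tmem119, Fcrls, Selplg and Siglech were higher over all libraries. Tmem119, a membrane protein used to tell microglia from other macrophages (chr5:113793729-113800516), was counted at 41.4, 53.1 and 59.8 CPM in the transgene and 21.2, 28.7 and 48.2 CPM in the control libraries. The highest control was control 11 of lane 4, and it alone among controls passed the lowest transgene library. Tmem119 was 1.69-fold higher (log2 fold change 0.76 ± 0.14, edgeR adjusted p = 0.000234), and its value within lane 4 was 0.39 ± 0.15 (edgeR adjusted p = 0.0724) against controls at 37.1, 32.4 and 48.2 CPM. Within lane 4 it passed without transgene 3 (edgeR adjusted p = 0.0404) or control 11 (0.0298).

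Fcrls, an Fc receptor-like scavenger receptor (chr3:87250758-87263738), varied more among libraries of a group. It was counted at 18.1, 29.99 and 44.5 CPM in the transgene and 2.99, 11.9 and 21.5 CPM in the control libraries. The lane 4 controls stood at 4.604, 12.1 and 21.5 CPM, and only the last reached into the transgene range. The log2 fold change was 1.49 ± 0.32 over all libraries (edgeR adjusted p = 0.000791) and 1.27 ± 0.43 within lane 4 (edgeR adjusted p = 0.0513). The lane 4 value passed without control 11 (edgeR adjusted p = 0.0190) or transgene 6 (0.0430).

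Selplg, the ligand of P-selectin (chr5:113818536-113832644), was counted at 48.4, 60.6 and 69.1 CPM against 20.8, 29.9 and 57.7 CPM. Control 11 again was the highest control, inside the transgene range, and all other controls lay under it. The log2 fold changes were 0.87 ± 0.16 (edgeR adjusted p = 0.000151) and, within lane 4, 0.44 ± 0.16 (edgeR adjusted p = 0.0695, and 0.0114 without control 11 or 0.0487 without transgene 3). Siglech, a sialic acid-binding lectin, rose by 0.66 ± 0.24 on the log2 scale over all libraries (edgeR adjusted p = 0.0298). Without transgene 2, which was the highest library at 3.80 CPM, Siglech was no longer called (0.49, edgeR adjusted p = 0.107), nor was it when scaled by library size alone (0.0658).

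**Figure D3:**
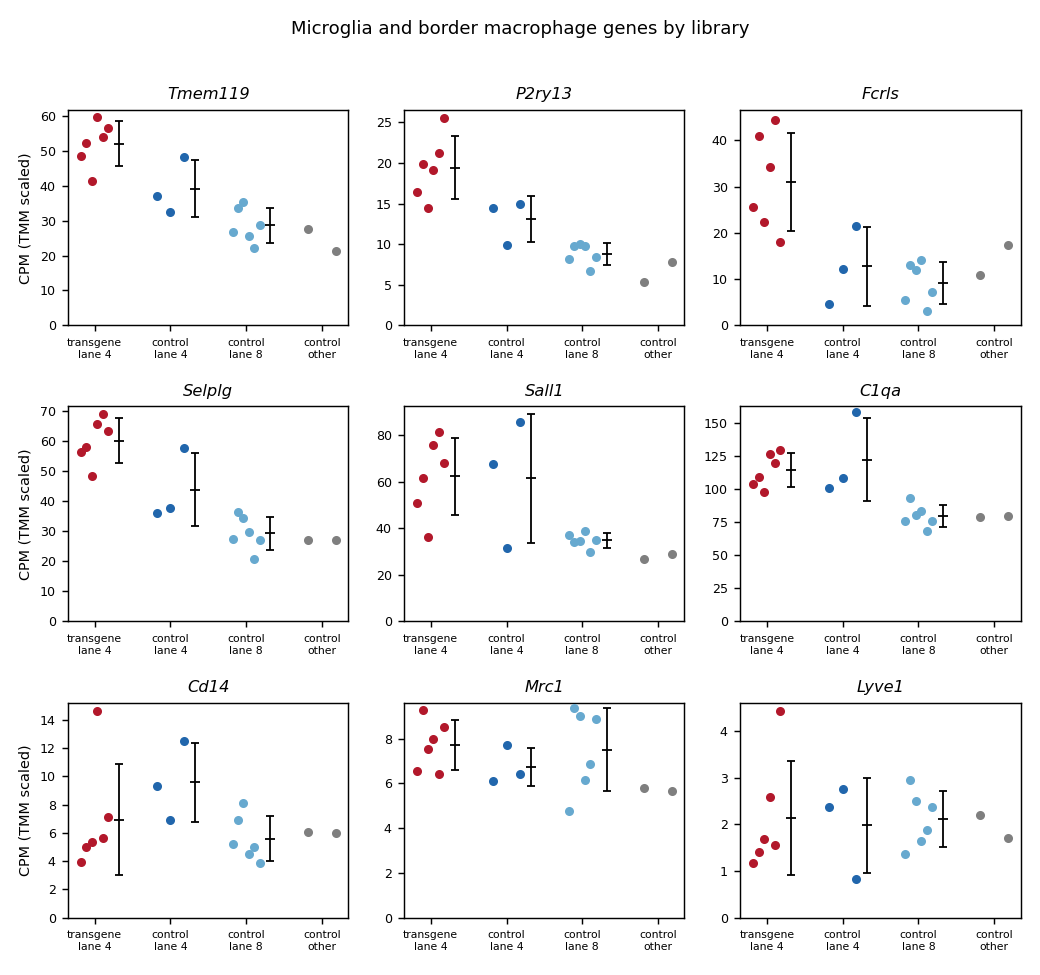
TMM-scaled CPM of 9 members in each library, by group and lane, with the mean and SD beside groups of 3 or more (grey: control 4 on lane 2 and control 6 on lane 6 of another flow cell). The means of Tmem119, P2ry13 and Selplg step down from transgene to lane 4 and lane 8 controls, C1qa lies higher in the lane 4 than in the lane 8 controls without overlap, the lane 4 controls of Sall1 reach from 31.4 to 85.8 CPM, and Mrc1 and Lyve1 overlap throughout.

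The 3 transcription factors among the members, Sall1, Spi1 and Irf8, were called higher over all libraries and not within lane 4. Sall1, which maintains microglial identity in mice (chr8:89027235-89044162), was counted at 36.2, 64.8 and 81.3 CPM in the transgene libraries. The lane 4 controls stood at 67.6, 31.4 and 85.8 CPM and spanned that whole range, while the lane 8 controls lay between 29.8 and 39.0 CPM. Its log2 fold change was 0.61 ± 0.23 over all libraries (edgeR adjusted p = 0.0391) and 0.00 ± 0.30 within lane 4 (edgeR adjusted p = 0.998). Sall1 is also expressed by some other neural cells, and leaving out any 1 of 12 libraries (control 1 to 6 and 8 to 10, transgene 4 to 6) ended its call, with edgeR adjusted p-values from 0.0543 to 0.0773, as did scaling by library size alone (0.0761).

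Spi1, which encodes PU.1 (chr2:91082390-91115756), was counted at 8.19, 13.5 and 19.2 CPM against 4.79, 8.21 and 13.9 CPM, with a wide overlap. It rose by 0.65 ± 0.24 on the log2 scale over all libraries (edgeR adjusted p = 0.0299), and its value within lane 4 was 0.16 ± 0.23. Without transgene 6, the highest library, the call over all libraries was lost (edgeR adjusted p = 0.0739), as it was when scaled by library size alone (0.0546). Irf8, its partner in microglial development, had a narrow range of 4.81 to 5.56 CPM in the transgene libraries against 2.14 to 5.52 CPM in the controls, and rose by 0.64 ± 0.16 (edgeR adjusted p = 0.00246; 0.21 ± 0.18 within lane 4).

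Of the genes for immunoreceptor signalling, Trem2 and its adaptor Tyrobp were higher over all libraries. Tyrobp (chr7:30413760-30417585) was counted at 20.3, 23.3 and 26.6 CPM against 9.86, 15.7 and 29.6 CPM, and control 11 was above all transgene libraries. The log2 fold change of Tyrobp was 0.54 ± 0.17 (edgeR adjusted p = 0.0145), and that of Trem2, a lipid-sensing receptor, was 0.64 ± 0.24 (edgeR adjusted p = 0.0324). Within lane 4 they were 0.08 ± 0.18 and 0.12 ± 0.23. The Trem2 call rests on 142 of 1143 exonic bases and was lost without control 4 (adjusted p = 0.0505) or transgene 2 (0.0584), or when scaled by library size alone (0.0618). The Fc receptor Fcgr3 (0.41 ± 0.25) and the signalling chain Fcer1g (0.11 ± 0.38) did not pass, and Inpp5d had 4 counts in all.

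The 3 chains of C1q, which starts the classical complement pathway and tags synapses in development, are encoded side by side on chromosome 4. C1qa (chr4:136895917-136898803) was counted at 97.7, 114.5 and 129.4 CPM in the transgene libraries, at 101.1, 108.2 and 158.1 CPM in the lane 4 controls and at 68.6 to 93.6 CPM in the lane 8 controls. The transgene and lane 4 control libraries overlapped, and both lay above every lane 8 control. Over all libraries C1qc passed (0.45 ± 0.16, edgeR adjusted p = 0.0287; 0.0942 when scaled by library size alone), while C1qa (0.32 ± 0.14, adjusted p = 0.0664) and C1qb (0.37 ± 0.18, adjusted p = 0.0987) did not. Without control 11 both did (edgeR adjusted p = 0.00106 and 0.00378), and C1qa also without control 7, transgene 1 or transgene 3 (0.0417 to 0.0465). Within lane 4 the values were -0.11 ± 0.15, -0.06 ± 0.20 and 0.02 ± 0.16 for C1qa, C1qb and C1qc.

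The share of the summed microglia level that the 3 C1q chains made up was 40.0% to 45.2% in the transgene and 41.9% to 51.2% in the control libraries. The groups overlapped, with means of 41.6% ± 1.94 (SD, n = 6) and 46.8% ± 2.61 (SD, n = 11). The lane 4 controls, at 41.9%, 51.2% and 47.6%, spanned the control range.

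Of the lysosomal and endosomal members, Laptm5, a lysosomal membrane protein (chr4:130913125-130936141), was counted at 49.9, 65.0 and 71.3 CPM against 30.6, 37.9 and 64.5 CPM. Of the controls, control 7 and control 11, both of lane 4, lay inside the transgene range. Laptm5 rose by 0.62 ± 0.13 (edgeR adjusted p = 0.000943; 0.27 ± 0.15 within lane 4), and Cd68, a lysosomal glycoprotein of phagocytes, by 0.84 ± 0.20 (edgeR adjusted p = 0.00215; 0.59 ± 0.23 within lane 4, adjusted p = 0.0825). Ctss, a cysteine protease, did not differ by the test (0.04 ± 0.23), and only 6 of its 1358 exonic bases lay in 1 transcript.

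Cd53, a leukocyte tetraspanin, rose by 0.64 ± 0.17 over all libraries (edgeR adjusted p = 0.00426) and had 0.28 ± 0.17 within lane 4. Members that did not pass over all libraries were Olfml3 (a secreted matrix protein, 0.37 ± 0.17, adjusted p = 0.0796), Slco2b1 (an organic anion transporter, 0.35 ± 0.21), Ly86 (a partner of a Toll-like receptor relative, 0.23 ± 0.19) and Cd14 (the lipopolysaccharide co-receptor, 0.04 ± 0.27). Without control 11 Olfml3 and Ly86 passed (edgeR adjusted p = 0.00923 and 0.0170), and without transgene 3 Olfml3 did (0.0299). Within lane 4, Cd14 stood at 3.94, 5.49 and 14.7 CPM in the transgene libraries and at 9.30, 6.93 and 12.5 CPM in the controls. Its log2 fold change there was -0.48 ± 0.37 (edgeR adjusted p = 0.388), and -0.84 with adjusted p = 0.0283 without transgene 4, which held the highest value.

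The border macrophage members overlapped between the groups throughout. Mrc1, the mannose receptor (chr2:14229392-14332057), was counted at 6.44, 7.76 and 9.27 CPM in the transgene and 4.76, 6.40 and 9.37 CPM in the control libraries, so the control range held the transgene range. Its log2 fold change was 0.15 ± 0.14 (edgeR adjusted p = 0.423; 0.18 ± 0.16 within lane 4). Lyve1, a hyaluronan receptor also made by lymphatic endothelium, had 0.05 ± 0.28, and Pf4, a chemokine also made by platelets, 0.11 ± 0.30. Of 4 tested lymphatic endothelial genes 3 were called lower, and of 5 tested platelet genes 2 were called higher. Cd163 had 19 counts in the transgene and 55 in the control libraries and was not tested. The 7 choroid plexus genes summed to 14.67 to 1795 CPM in the transgene and 64.45 to 3943 CPM in the control libraries. The 8 meningeal fibroblast genes summed to 100.1 to 200.8 CPM and 107.3 to 177.2 CPM. The part of choroid plexus and meningeal content in the border macrophage values was not tested.

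Summed over the 30 microglia members, the level was 559.4, 717.0 and 779.3 CPM (lowest, median and highest) in the transgene libraries. It was 534.8, 518.5 and 840.4 CPM in control 7, control 8 and control 11 of lane 4, 319.5 to 497.9 CPM on lane 8, 419.6 CPM in control 4 and 411.7 CPM in control 6. The highest library of all was thus a control of lane 4, and all controls of other lanes lay under every transgene library. The 4 border macrophage members summed to 8.65 to 14.1 CPM and 6.91 to 13.4 CPM. The log2 ratio of the border to the microglia sum averaged -5.99 ± 0.28 (SD, n = 6) in the transgene, -5.52 ± 0.46 (SD, n = 11) in all control and -5.97 ± 0.58 (SD, n = 3) in lane 4 control libraries. The difference of group means was -0.47 over all libraries, about the SD of the controls, and -0.02 within lane 4. The latter changed sign without control 7, control 8, transgene 1 or transgene 5 (0.03, 0.23, 0.0019 and 0.07), and was -0.34 without control 11.

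**Figure D4:**
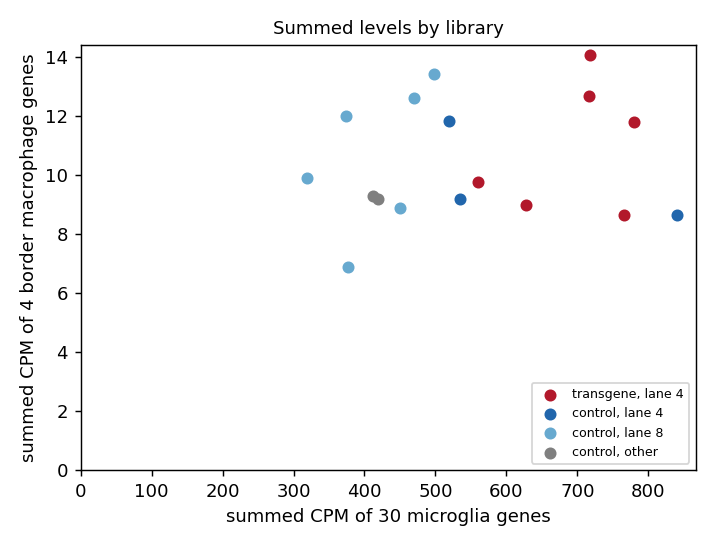
Summed CPM of the 4 border macrophage members against that of the 30 microglia members, 1 point per library. The transgene libraries (red, 559.4 to 779.3 CPM on the x axis) lie right of every control of lanes 8, 2 and 6, while the lane 4 controls (dark blue) reach 840.4 CPM. On the y axis the groups overlap.

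The controls of lane 8 and lane 4 were compared with each other, and no member passed the test. Between lane 8 and lane 4 controls, edgeR called 0 of 19384 features (0%), with 1543 at an unadjusted p under 0.05, DESeq2 called 1 and limma-voom 0. All 27 tested members were among those not called by edgeR. Of the 24 tested microglia members, 23 had a log2 fold change below 0, with a median log2 fold change of -0.58 (lane 8 minus lane 4) against 0.00 over all features, and 15 had an unadjusted p under 0.05. C1qa stood at 68.6 to 93.6 CPM on lane 8 and at 101.1 to 158.1 CPM on lane 4, without overlap, as did 1.10% of features downward and 1.52% upward. The median of the 3 border macrophage members was 0.10. These controls also differed in markers of brain parts, without a call. All 7 cerebellar genes (median 0.9436) and all 5 tested choroid plexus genes (median 0.6926) were above 0 on the same scale. All 7 hindbrain and spinal cord genes were below 0 (median -1.0045), and the median of 6 tested striatal genes was -0.1356. Whether brain part or lane underlies the shift of the microglia members was not tested.

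Control 11 was the highest control for 19 of the 25 microglia members tested over all libraries, and control 9, on lane 8, the lowest for 15. In 23 of the 25, all but P2ry12 and Gpr34, the mean of the lane 4 controls was above that of the lane 8 controls. For 16 it lay between the lane 8 controls and the transgene libraries. For 7 (C1qa, C1qb, Ctss, Ly86, Fcer1g, Fcgr3 and Cd14) it was the highest of these means. Without control 11, the median over all 27 members in the comparison of lanes moved from -0.57 to -0.31. Outside lane 4, no transgene library was run, so there lane and group cannot be told apart. When lane and flow cell were added to the fit as a term, 3 of the 28 tested members were called: P2ry12, P2ry13 and Gpr34. In that fit 5887 of 19136 features were called, 2871 of them higher.

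Ligands and survival signals of microglia were examined as a further list of 16 genes, of which 14 were tested. Over all libraries 6 were called higher and 3 lower (median 0.28), and within lane 4 also 6 and 3 (median 0.24). Of all features, 23.0% were called higher and 24.4% lower over all libraries, and 13.6% and 12% within lane 4, so that the lower calls over all libraries were near the background. Cx3cl1, the neuronal ligand of Cx3cr1, was counted at 871.2, 995.8 and 1129 CPM in the transgene libraries and at 151.2, 282.7 and 383.4 CPM in the controls, so that every transgene library was above every control. Its log2 fold change was 1.92 ± 0.17 over all libraries (edgeR adjusted p = 1.95e-07) and 1.71 ± 0.12 within lane 4 (edgeR adjusted p = 3.36e-05).

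The 2 ligands of Csf1r differed in opposite directions. Il34, the ligand made mainly by forebrain neurons, was counted at 1.12, 1.65 and 2.0 CPM in the transgene and 0.411, 0.523 and 0.977 CPM in the control libraries, without overlap. Its log2 fold change was 1.40 ± 0.21 (edgeR adjusted p = 3.12e-05), and 1.36 ± 0.36 within lane 4 (edgeR adjusted p = 0.0176). Gm15894 and Gm15895 lie over Il34 on the opposite strand, and their reads cannot be told apart from those of Il34 without the strand setting. Csf1, the other ligand, was counted at 2.42, 3.40 and 3.88 CPM in the transgene libraries. Its lane 4 controls stood at 6.56, 4.47 and 6.14 CPM and did not overlap with them, while the lane 8 controls, at 3.61 to 5.00 CPM, did. Csf1 fell by 0.47 ± 0.17 on the log2 scale over all libraries (edgeR adjusted p = 0.0241) and by 0.83 ± 0.20 within lane 4 (edgeR adjusted p = 0.0120).

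**Figure D5:**
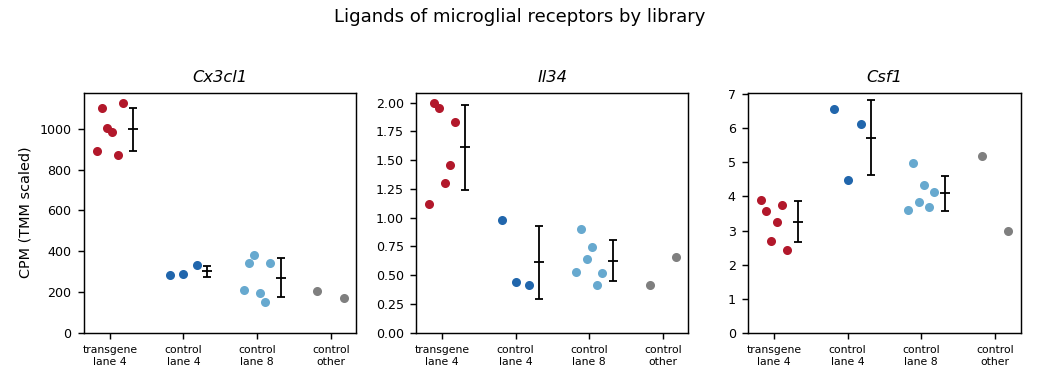
TMM-scaled CPM of Cx3cl1, Il34 and Csf1 in each library by group and lane, with the mean and SD beside groups of 3 or more. Cx3cl1 and Il34 in the 6 transgene libraries lie above all 11 controls, and Csf1 lies below the 3 lane 4 controls.

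A further list held microglia genes beyond the 34 members. Of 19 tested, 12 were called higher and 2 lower over all libraries (median 0.49), and 1 higher and 1 lower within lane 4 (median 0.27). Crybb1 was the one called higher in both comparisons (1.22 ± 0.23, and 0.82 ± 0.24 within lane 4). Sparc, a matrix protein that astrocytes and endothelium also make, fell by 1.47 ± 0.17 and by 1.69 ± 0.23 within lane 4.

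Of 18 tested genes of activated microglia, 3 were called higher and 5 lower over all libraries (median -0.12), and 1 and 4 within lane 4 (median -0.26). Spp1, an osteopontin gene also expressed by hindbrain neurons, was counted at 0.0591 to 0.488 CPM in the transgene and 0.815 to 8.88 CPM in the control libraries. Lpl, a lipoprotein lipase also expressed by neurons, was counted at 35.1 to 51.7 CPM against 5.13 to 21.4 CPM. Neither overlapped between the groups. Of 14 tested complement genes, 2 were higher and 3 lower, and C3 was not called (-0.21 ± 0.37). Of 11 tested further border macrophage genes, 3 were higher and 3 lower, and within lane 4, 2 were higher and 1 lower (median -0.20). The scavenger receptor Stab1 rose by 0.65 ± 0.13 over all libraries and by 0.56 ± 0.15 within lane 4, without overlap in either. Maf lay the other way without overlap, at 37.7 to 44.1 CPM in the transgene and 45.8 to 75.3 CPM in the control libraries. Nt5dc2 lies over Stab1 and Gm15655 over Maf on the opposite strand, so the same limit applies. Over all libraries, the counts of calls in the activated microglia, complement and further border macrophage lists were near the shares of all features.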

How the data were processed

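The authors deposited raw counts per transcript for 17 libraries, with 68517 rows each. The build was mm10, per the submitters' processing notes; which aligner, counter, strand setting and annotation were used is not given in the sources used here. Closing rows that name no feature (ambiguous reads 40.2% to 43.4%, reads outside features 5.29% to 11.1%) were kept out of library sizes. Transcript rows were matched to GENCODE M21 (64380 of 64505; 62415 with the same version) and summed per gene; 4007 assembled loci and 125 unmatched rows stayed separate, giving 45147 features.

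All features were fitted with edgeR 4.0.16 in R 4.3.3 (quasi-likelihood F test, TMM, default expression filter), with Benjamini-Hochberg adjustment over all tested features and a threshold of 0.05. The procedure was tested on simulated counts. DESeq2 1.42.0, limma-voom (limma 3.58.1), other scalings and filters, a lane factor and leaving out each library were alternatives. Intervals and SEs do not cover reads lost to overlapping transcripts.

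The members, companion lists and tests were chosen with earlier results of these data known. The text names all members and, from each other list, at most 5 called genes with the smallest p, with Csf1, Il34, Cx3cl1 and C3; some results are not reported here. No pair of libraries in a group agreed within counting noise (chi-square per feature at least 9.97 over 55 control pairs and 13.7 over 15 transgene pairs). Promoters and their starts came from RefSeq.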

Additional observations from a re-analysis of the deposited data

Results flagged for a closer look

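Of 37 values examined over the 6 transgene libraries (members, summed levels and ratios), 5 had 1 library apart from the others, its gap to the nearest library being more than 0.625 of the range. Chance flags about 1 in 20 such groups. Siglech was at 3.80 CPM in transgene 2, where the next library had 2.44 CPM. Laptm5 was at 49.9 CPM in transgene 3, the lowest value, against 63.7 CPM in the next. Cd14 was at 14.7 CPM in transgene 4, against 7.16 CPM. Itgam was at 0.0 CPM in transgene 1, against 0.0464 CPM or more in the others, and Inpp5d at 0.0591 CPM in transgene 6 and at 0 in the others. The last 2 rest on 5 counts and 1 count.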

How the results depend on the processing

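Counts of called microglia members fell most where the groups were compared within lane 4 or with lane and flow cell as a term. Both fits set the transgene libraries against 3 controls of lane 4 in place of 11. Without control 11, the median of all members within lane 4 moved from 0.15 to 0.35. The parts of the lane, of fewer controls and of control 11 were not tested. Over all libraries the 16 calls were 3 with lane and flow cell as a term, with 5887 features called, 10 among the members with 1 deposited transcript (a subset chosen after seeing the data), and 14 to 20 when 1 library was left out, with 8177 to 9550 features called. Scaling by library size alone, which moved the median of all features from -0.05 to -0.16, left 11 called (without C1qc, Sall1, Siglech, Spi1 and Trem2), and higher calls made up 35.6% of all calls against 48.6%; within lane 4 they made up 44.8% against 53.0%. A replicate block on the number that opens each title, whose meaning the labels do not give, left 12 members (without C1qc, Sall1, Siglech and Spi1) and 7503 features called. Same-numbered libraries of the groups deviated together with correlations from -0.07 to 0.34, so the numbers were not taken as pairs. Within lane 4 the 2 calls were 6 with DESeq2's Wald test, 0 among the members with 1 deposited transcript, 1 without control 7 and transgene 3 together, and 0 to 5 when 1 library was left out, with 3712 to 4863 features called: 0 without control 7, 1 without control 8, 4 without control 11 and 5 without transgene 3. Between control lanes, DESeq2 called 1 feature, and leaving out 1 control gave 0 to 88 features and 0 to 1 member; the 88 and the member, Sall1, came without control 8. The border to microglia log2 ratio ranged from -0.58 to -0.38 over all libraries and from -0.34 to 0.23 within lane 4 when 1 library was left out.

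Signs changed only for uncalled values. Over all libraries, log2 fold changes turned to -0.074 (Ctss), -0.061 (Cd14), -0.069 (Lyve1) and -0.015 (Pf4) with library size alone, to -0.011 (Cd14) and -0.037 (Lyve1) with limma-voom, and to -0.078 (Ctss), -0.094 (Cd14) and -0.22 (Lyve1) with the block. With lane and flow cell as a term they were -0.10 (C1qa), -0.043 (C1qb), -0.45 (Ctss), -0.18 (Ly86), -0.21 (Fcer1g), -0.016 (Fcgr3) and -0.46 (Cd14). Leaving out 1 library gave -0.04 to 0.16 for Ctss, -0.16 to 0.31 for Fcer1g, -0.28 to 0.19 for Cd14, -0.26 to 0.21 for Lyve1 and -0.12 to 0.29 for Pf4. Within lane 4, values turned to -0.064 (Sall1), -0.061 (C1qc) and -0.040 (Olfml3) with library size alone, to 0.0045 (Cx3cr1) without a filter, to 0.057 (Cx3cr1) and 0.0062 (C1qb) with limma-voom, and to -0.13 (C1qc), -0.053 (Olfml3) and -0.044 (Slco2b1) without control 7 and transgene 3. Leaving out 1 lane 4 library gave -0.40 to 0.43 for Cx3cr1, -0.31 to 0.30 for Sall1, -0.011 to 0.29 for Trem2, -0.11 to 0.36 for Tyrobp, -0.23 to 0.10 for C1qa, -0.28 to 0.28 for C1qb, -0.15 to 0.28 for C1qc, -0.13 to 0.32 for Olfml3, -0.48 to 0.24 for Ly86, -0.38 to 0.058 for Fcer1g, -0.17 to 0.16 for Fcgr3, -0.29 to 0.39 for Lyve1 and -0.052 to 0.68 for Pf4. The causes were not tested, except that fewer libraries or members enter where some are left out. Depth limits Csf1r, Cx3cr1, Aif1, Itgam, Inpp5d and Cd163, most of whose exonic bases lie in several transcripts.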

Other observations

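Genes that act beside the members in myeloid cells were counted in 2 more lists. Of 17 tested genes of immunoreceptor signalling, 6 were called higher and 3 lower over all libraries, with a median log2 fold change of 0.37, and 1 higher and 0 lower of 18 within lane 4, with a median of 0.10. Blnk, an adaptor of B cell and macrophage receptors, was counted at 0.904 to 7.10 CPM in the transgene and 0.143 to 0.699 CPM in the control libraries, without overlap (2.63 ± 0.37, edgeR adjusted p = 1.54e-05; 2.54 ± 0.69 within lane 4, adjusted p = 0.0210). Lyn, a Src family kinase, fell by 1.40 ± 0.29 over all libraries (edgeR adjusted p = 0.000531) and had an adjusted p of 0.0681 within lane 4. Nckap1l, a haematopoietic actin regulator, rose by 0.72 ± 0.17 over all libraries (edgeR adjusted p = 0.00150) and had 0.41 ± 0.22 within lane 4.

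Of 15 tested myeloid transcription factors, 3 were called higher and 3 lower over all libraries, and 4 and 2 within lane 4. Over all libraries these counts were near the shares of all features given above. Mef2c, which neurons also express, was counted at 3.49 to 4.73 CPM against 0.0930 to 1.57 CPM, on single-transcript reads of a gene with 13 deposited transcripts. Nfkb1 fell by 0.59 ± 0.10 and Nfe2l2 by 0.44 ± 0.09 over all libraries, both without overlap.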
